A study of Homo sapiens with 14 samples.

Results

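RNA was compared between single-cell clones of A375, a human melanoma line, that carried a heterozygous loss-of-function edit of ZC3H18 (-/+, n = 3) and single-cell clones with wild-type ZC3H18 (WT, n = 2). These 5 libraries were chosen by their genotype label and are 5 of the 14 libraries of the series. The other 9 were 3 clones heterozygous for a truncating ZC3H18 mutation (trunc/+), 3 bulk populations with an empty vector and 3 bulk populations edited at ZC3H18 by CRISPR. All clones had been transiently transfected, kept under antibiotic selection and grown from single cells by limiting dilution. Per the study's methods, the WT clones grew from cells that received Cas9 without any guide, and the -/+ clones were picked by Sanger sequencing and an immunoblot. The sample titles begin with g2 for -/+ clones 1 and 2 and with g1 for clone 3. Every library is therefore 1 clone, and a difference between clones cannot be told apart from a difference between genotypes except by its spread over 3 and 2 clones. Only the exact permutation p-values of -/+ against WT rest on these 5 clones alone. The limma and edgeR p-values use a spread pooled over all 8 clones, the trunc/+ clones included, and moderated over all genes or TEs. The study used the -/+ clones to ask whether the truncated protein disturbs the intact one.

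ZC3H18 is a CCCH zinc-finger protein that links the cap-binding complex on nascent RNA to the nuclear machinery for RNA decay. Its neighbours in that pathway are SRRT (ARS2) and the cap-binding proteins, the NEXT and PAXT adaptors, which recruit the helicase MTREX, and the RNA exosome, which degrades the RNA from its 3′ end. Substrates of this pathway include short-lived nuclear transcripts, extended or unprocessed small nucleolar RNAs (snoRNAs) and RNA of transposable elements (TEs).

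The WT libraries held 27705683 and 32238161 aligned fragments and the -/+ libraries 24837091, 18742399 and 23885139, of which 6.92% to 7.91% fell in TEs. SOX10, the transcription factor of the melanocyte lineage, was at 180 and 115 FPKM (fragments per kilobase of transcript, scaled to library depth) in WT and 212, 146 and 47.8 in -/+. PRAME, a melanoma antigen, was at 94.5 and 90.9 in WT and 87.1, 69.5 and 63.4 in -/+. The pigment genes TYR and MLANA were listed at 0 in all 5 clones, and PMEL was at 0.282 FPKM at most. Of the markers of other cell types PTPRC and HBB were listed at 0 and EPCAM was at 0.201 at most, but KRT14 reached 16.9, LUM 7.78, LYZ 7.54 and KDR 3.21, and CD74, which melanoma cells can also make, is given below. The 9 epithelial markers, which include KRT8 and KRT18, summed to 214 and 568 FPKM in WT and 183, 369.8 and 717 in -/+, and the 9 melanocyte markers to 346 and 215 against 397, 248 and 128.5.

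ZC3H18 RNA was lower in each -/+ clone than in both WT clones. The gene (chr16:88570403-88631964, plus strand, hg38) was at 23.5 and 21.97 FPKM in WT and at 16.2, 17.1 and 16.1 in -/+. The 3 -/+ clones lay within 71.1% to 75.2% of the WT mean, and the groups did not overlap. The means were 16.5 ± 0.535 (SD, n = 3) in -/+ and 22.7 ± 1.06 (SD, n = 2) in WT, so that -/+ held 72.5% of the WT level. On the log2(FPKM + 1) scale the difference was -0.44 (SE 0.21), with a limma adjusted p = 1 after Benjamini-Hochberg adjustment over all genes, and a two-sided exact permutation p = 0.1, the smallest that 3 clones against 2 can give. Ranked by unadjusted limma p, ZC3H18 stood at place 366 of 12904 genes. The trunc/+ clones were lower still, at 14.3, 13.98 and 8.70 FPKM, and trunc/+ differed from -/+ by -0.42 (SE 0.19, limma adjusted p = 0.8). In the unedited bulk controls ZC3H18 was at 38.1, 13.9 and 48.7, so 1 control library lay below every -/+ clone, and the bulk CRISPR populations were at 10.4, 11.9 and 12.8. In such libraries fewer expressing cells and less RNA per cell cannot be told apart.

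**Figure D1:**
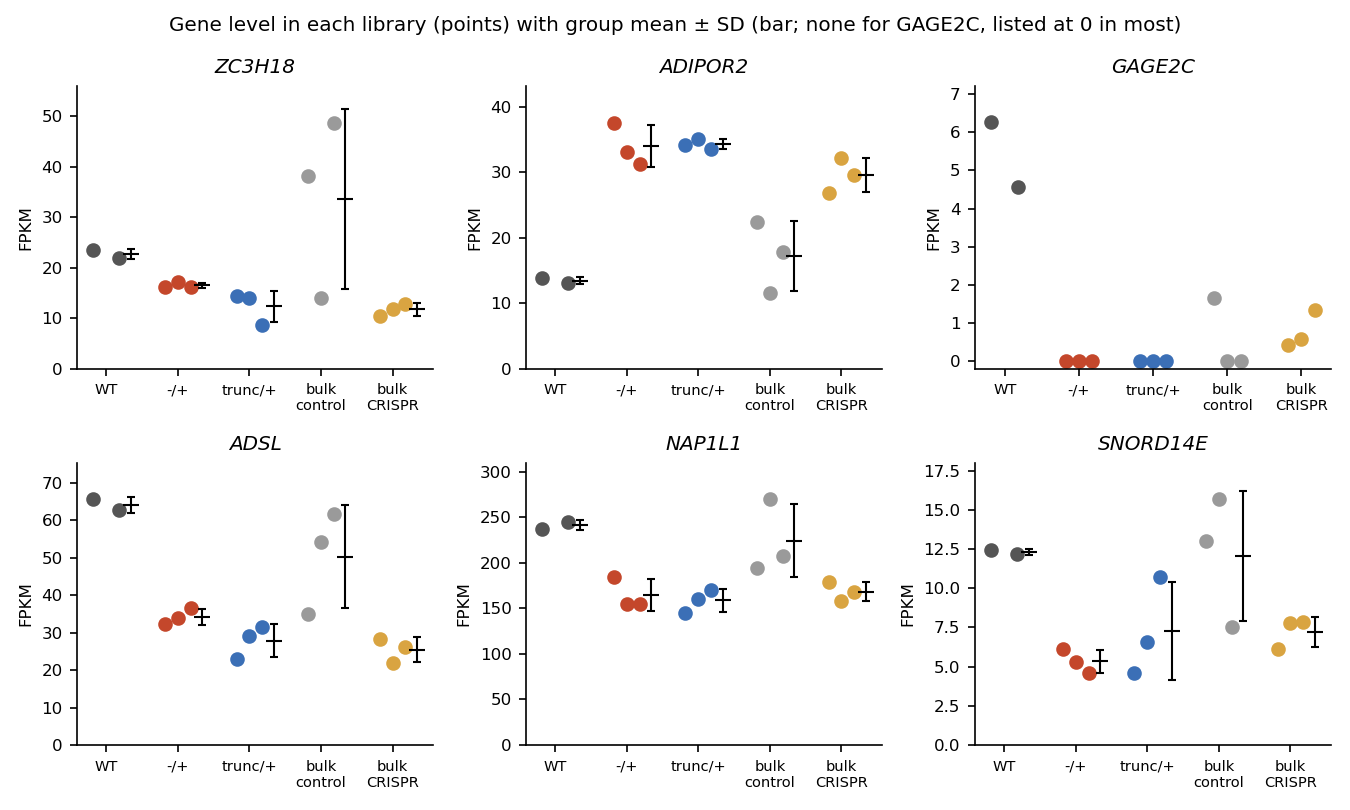
FPKM of 6 genes in each of the 14 libraries (points), by group, with bars for mean ± SD by group except for GAGE2C, which is listed at 0 in most libraries. ZC3H18 lies at 16.1 to 17.1 in the -/+ clones, below both WT clones, and ADIPOR2 lies at 31.3 to 37.6 in the -/+ clones and at 13.1 and 13.8 in WT.

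Across the transcriptome few differences between the -/+ and WT groups stood out from the spread among clones. Single pairs of a -/+ and a WT clone had 289 to 1146 genes over 2-fold apart on the log2(FPKM + 1) scale. Of 12904 genes that reached an FPKM of 1 in 2 or more clones, limma called 0 higher and 1 lower in -/+ (0.00775% called). At an unadjusted p under 0.05, 92 genes were higher (0.713%) and 143 lower (1.11%). The median log2 fold change (log2FC) over all genes was -0.02, the median size of a change regardless of sign was 0.14, and the median SE was 0.23. All 3 -/+ clones lay above both WT clones in 795 genes (6.16%) and below both in 1089 (8.44%). Only 124 genes (0.961%) differed by at least 1 on the log2 scale, and 43 of them also had groups that did not overlap and an FPKM of at least 5 in some clone, 19 higher and 24 lower. The same fit called 0 genes between trunc/+ and -/+.

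The called gene was GAGE2C, a cancer-testis antigen gene of a tandem family on chromosome X (chrX:49589529-49596837). It was at 6.27 and 4.58 FPKM in WT and was listed at 0 in the 3 -/+ and the 3 trunc/+ clones (limma adjusted p = 0.0356 for -/+ against WT). No fold is given, because a listed 0 has no depth here. Among the clones, only the 2 WT clones brought the gene past the FPKM filter, and the SD within -/+ and within trunc/+ was 0. The limma p-value therefore rests on the spread between the 2 WT clones and on the trend over all genes. It is not independent of the filter. The neighbouring entry GAGE2A covers nearly the same place (chrX:49589515-49596827), so reads can be shared out between them. GAGE2A was at 0.0689 and 0.0368 in WT and at 0.508, 0.664 and 0 in -/+. The sum of both genes was 6.34 and 4.61 in WT and 0.508, 0.664 and 0 in -/+, so the groups stayed apart in the sum. Over the 22 GAGE genes of the files the sum was 7.98 and 4.65 in WT against 0.508, 0.664 and 0 in -/+. The trunc/+ clones had 0.126, 1.79 and 0. In bulk cells the 22-gene sum was 2.25, 3.58 and 1.22 in the controls and 1.99, 1.03 and 2.02 after CRISPR, with groups that overlap. GAGE2C itself stood at 1.65, 0 and 0 in these controls, and the CRISPR populations had 0.434, 0.592 and 1.34, again overlapping. The call was lost in 6 alternatives, among them each fit without 1 of the -/+ clones (limma adjusted p = 0.149 to 0.338), a pseudocount of 0.1 (adjusted p = 1) and a fit on the 5 clones alone (adjusted p = 0.282). Without either WT clone the gene fell below the filter and was not tested.

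ADIPOR2, a receptor for the fat-cell hormone adiponectin, had the next smallest p. It was at 13.8 and 13.1 FPKM in WT and at 37.6, 33.2 and 31.3 in -/+. Every -/+ clone was thus far above both WT clones. The means were 34.0 ± 3.21 (SD, n = 3) and 13.5 ± 0.543 (SD, n = 2), a log2FC of 1.27 (SE 0.13, limma adjusted p = 0.066). With no filter on low values the adjusted p was 0.0337, and over the other alternatives it ran from 0.087 to 1. The trunc/+ clones were at 34.2, 35.1 and 33.6, and trunc/+ differed from -/+ by 0.01 (SE 0.11, limma adjusted p = 0.993). The bulk controls were at 22.3, 11.6 and 17.8 and the bulk CRISPR populations at 26.9, 32.1 and 29.6, so that all 9 edited libraries of the series lay above all 5 unedited ones.

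That order, all 9 edited libraries above or below all 5 unedited ones, was met by 30 genes above (0.232%) and 47 below (0.364%). The genes named here were picked after their values were seen. Of the unedited libraries 3 are bulk controls. Control 2 held 18531793 aligned fragments and control 3 held 15615675, with 10.7% in TEs and 48.6% of sense TE counts unique. Bulk controls 1, 2 and 3 also spread widely, for example DPM3 at 95.3, 231 and 112 FPKM and RNF6 at 15.7, 6.91 and 1.36. Whether the order reflects editing was not tested. NAP1L1, a histone chaperone, was at 237 and 245 FPKM in WT and 185, 154 and 155 in -/+ (log2FC -0.55, SE 0.13, limma adjusted p = 1). DPM3, a subunit of the enzyme that makes dolichol-phosphate mannose, was at 74.3 and 86.8 in WT and 46.8, 44.7 and 53.1 in -/+. FBL, the methyltransferase of C/D box snoRNA particles, was at 267 and 269.8 in WT and 211, 209 and 235 in -/+. FBL in trunc/+ was lower again, at 165, 156 and 147, a difference from -/+ of -0.48 (SE 0.10, limma adjusted p = 0.785). RPA3, a subunit of the single-strand DNA binding complex, was at 43.2 and 38.1 in WT and 31.1, 25.9 and 34.0 in -/+. Among the genes above were RNF6, a ubiquitin ligase (14.2 and 12.2 in WT and 17.1, 21.6 and 20.9 in -/+), and LAMP2, a lysosomal membrane protein (21.5 and 20.2 in WT and 33.7, 25.9 and 23.8 in -/+). ADSL, an enzyme of purine synthesis, missed the order by 1 bulk control at 35.1 FPKM. It was at 65.6 and 62.7 in WT and 32.4, 33.8 and 36.6 in -/+ (log2FC -0.89, SE 0.16, limma adjusted p = 1).

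The genes named by rule were those with a log2FC of at least 1 in size, groups that did not overlap and an FPKM of at least 5 in some clone, taken by smallest p to 12 a direction. Since this rule used the contrast, their values are a description. Apart from GAGE2C and ADIPOR2 they all had a limma adjusted p = 1. On the higher side, PRSS23, a secreted serine protease, was at 26.1 and 22.3 FPKM in WT and 44.9, 59.5 and 50.5 in -/+. CCDC115, an assembly factor of the vacuolar proton pump, was at 2.47 and 2.50 in WT and 6.44, 7.79 and 11.5 in -/+. LAMTOR3, a scaffold of the lysosomal Ragulator complex, was at 2.55 and 2.31 in WT and 6.14, 6.53 and 7.18 in -/+. In these 3 genes every -/+ clone was clear of both WT clones. The bulk controls, which had not been edited, spanned the same levels for CCDC115 (9.11, 10.1 and 9.80), and LAMTOR3 reached 7.77 in 1 of them.

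In other members the -/+ clones themselves were far apart. CTSK, the collagen-degrading protease cathepsin K, was at 0.218 and 0.2355 FPKM in WT and at 14.7, 4.61 and 2.47 in -/+. GPATCH4, a nucleolar protein, was at 27.4 and 28.1 in WT and 75.8, 115.2 and 36.0 in -/+. NR2F1, a nuclear receptor of neural crest cells, was at 1.39 and 0.550 in WT and 1.61, 3.12 and 11.7 in -/+. GDF15, a stress-induced cytokine, was at 0.641 and 1.91 in WT and 2.06, 7.77 and 6.63 in -/+. FAM217B was at 1.26 and 1.61 in WT and 2.48, 10.1 and 10.3 in -/+. In NR2F1 and GDF15 the lowest -/+ clone was close to the highest WT clone. GTF2IP4, a pseudogene of the transcription factor GTF2I with near-identical relatives, was at 0.0120 and 0.0408 in WT and 12.1, 8.26 and 8.15 in -/+. For GTF2IP4 trunc/+ clone 3 had 0.0297. Its bulk controls were at 5.53, 4.08 and 7.40, above both WT clones and below every -/+ clone. Reads shared with its relatives make these levels uncertain.

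On the lower side, FABP7, a fatty acid binding protein of glial and melanoma cells, was at 8.25 and 7.72 FPKM in WT and 4.25, 3.94 and 0.935 in -/+. NES, the intermediate filament nestin of neural progenitors, was at 51.4 and 81.7 in WT and 43.5, 33.3 and 11.5 in -/+. HOXB9, a homeobox factor, was at 9.46 and 9.17 in WT and 6.08, 4.23 and 0.889 in -/+. In all 3 genes -/+ clone 3 was lowest and -/+ clone 1 nearest to WT. FABP6, a bile acid binding protein, followed the same order, at 15.9 and 15.2 in WT and 10.5, 4.35 and 2.51 in -/+. In the unedited bulk controls FABP7 was at 0.167, 1.95 and 0.0891 and NES at 8.20, 4.33 and 9.21. HOXB9 was at 3.52, 1.80 and 2.54 there and FABP6 at 3.76, 7.55 and 3.63. In each of these genes every bulk control thus lay below both WT clones. After bulk CRISPR NES was at 28.5, 16.3 and 27.5, above every control, and FABP6 at 2.86, 2.25 and 1.55, below every control. FABP7 and HOXB9 overlapped with their controls after bulk CRISPR. VCX3B, a testis gene of chromosome X, was at 2.18 and 5.77 in WT and 0.254, 0.153 and 0.927 in -/+, and the 4 VCX genes together were at 3.29 and 6.63 against 0.568, 0.153 and 0.927. STOM, the membrane protein stomatin, was at 42.3 and 41.1 in WT and 12.5, 12.02 and 40.5 in -/+, and KCNG1, a potassium channel subunit, at 21.8 and 30.2 in WT and 15.9, 15.3 and 5.48 in -/+. STOM thus differed in 2 of the 3 -/+ clones and KCNG1 most in clone 3. The bulk controls were at 6.70, 5.36 and 21.1 for KCNG1 and at 41.6, 30.7 and 14.8 for STOM. VCX3B was at 2.77, 6.24 and 2.52 in them, above every -/+ clone. After bulk CRISPR VCX3B was at 3.05, 2.77 and 3.15, which overlapped with the controls.

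A pair of named entries cancels when summed. U2AF1, the small subunit of the splicing factor that reads the 3′ splice site, and U2AF1L5 are both listed at the same 2 places of chromosome 21 (from 6484623 and from 43092956). U2AF1 was at 19.8 and 58.3 FPKM in WT and 75.4, 94.8 and 60.8 in -/+, and U2AF1L5 at 97.5 and 69.6 in WT and 24.4, 21.7 and 66.2 in -/+. Their sum was 117 and 127.9 in WT and 99.7, 117 and 127 in -/+, with groups that overlap.

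Among the named entries were snoRNAs, which guide modification of ribosomal RNA and are cut from introns or exons of host transcripts. SNORA44 was at 0.852 and 1.80 FPKM in WT and at 5.83, 5.33 and 7.42 in -/+. SNORD14E and SNORA9 were lower in every -/+ clone, SNORD14E at 12.4 and 12.2 in WT and 6.09, 5.32 and 4.6002 in -/+, and SNORA9 at 6.02 and 7.57 against 3.65, 2.99 and 1.91. Their sequences are shown because ZC3H18 acts in a pathway that trims such RNAs and because all 3 lie within longer transcripts, whose reads the short entries can share. SNORA44 (chr1:28580381-28580512, minus strand, hg38) lies in an exon of SNHG12, SNORD14E (chr11:123058077-123058156, minus strand) in an intron of HSPA8 and SNORA9 (chr7:44985378-44985510, minus strand) in an exon of SNHG15. Capitals mark the C box letters TGATGA and the D box letters CTGA in the C/D box member, and the letters ANA 3 bases before the 3′ end in the H/ACA members, each read on the snoRNA strand:
SNORA44: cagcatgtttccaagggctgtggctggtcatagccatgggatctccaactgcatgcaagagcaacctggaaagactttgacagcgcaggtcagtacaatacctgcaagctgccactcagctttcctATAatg
SNORA9: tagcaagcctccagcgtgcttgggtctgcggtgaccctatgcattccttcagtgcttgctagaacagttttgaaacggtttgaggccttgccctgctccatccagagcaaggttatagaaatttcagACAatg
SNORD14E: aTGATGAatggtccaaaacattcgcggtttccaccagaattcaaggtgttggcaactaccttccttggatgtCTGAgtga
Of the 135 C/D box entries tested, 89 (65.9%) held both boxes by these letters, as did 68 of the 72 H/ACA entries (94.4%) for ANA.

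In these 3 hosts the groups overlapped. SNHG12 was at 21.4 and 21.3 FPKM in WT and 16.5, 22.7 and 31.0 in -/+, and HSPA8, a constitutive chaperone, at 929 and 1082 against 801, 1275 and 1341. SNHG15 was at 20.8 and 20.2 in WT and 14.8, 19.8 and 20.3 in -/+. Taken as a class, the 135 C/D box entries had a median log2FC of -0.26, against -0.02 over all genes, with 5 above and 27 below both WT clones, and the 72 H/ACA entries a median of -0.16, with 5 above and 12 below, where 6.16% of all genes lay above and 8.44% below. By clone the C/D median against the WT mean was -0.17, -0.38 and -0.16 in -/+, and -0.74, -0.18 and 0.38 in trunc/+. At an unadjusted p under 0.05, 3 C/D entries were higher and 2 lower, and 2 H/ACA entries were higher and 1 lower, against 0.713% and 1.11% of all genes. The libraries were polyA-selected and mature snoRNAs carry no poly(A) tail, so these entries may count polyadenylated RNA that covers them. Carry-over of mature snoRNAs through the selection was not tested.

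In ZC3H18's own pathway no gene was called. Of 9 genes of the cap-binding complex and its ZC3H18 partners, 0 were called and 0 passed an unadjusted p under 0.05, and the median log2FC was -0.03. SRRT, the partner with the highest log2FC, was at 47.2 and 48.7 FPKM in WT and 45.5, 61.0 and 64.2 in -/+ (0.23, SE 0.18). The 9 NEXT and PAXT adaptors had a median of 0.02 and the 14 exosome genes one of -0.01, again with 0 members below that p. MTREX, the helicase shared by both adaptors, was at 57.5 and 57.9 in WT and 54.8, 48.9 and 45.7 in -/+. DIS3, the exosome nuclease, was at 12.7 and 10.5 in WT and 14.3, 19.8 and 12.98 in -/+, and it lies on chromosome 13, which is described below. The 24 snoRNA host genes had a median of -0.09. Of them 2 lay above and 7 below both WT clones, where 6.16% and 8.44% of all genes did. SNHG8 was among the lower, at 231 and 230 in WT and 157, 189 and 194 in -/+, as was GAS5, at 569 and 556 against 507, 366 and 354. SNHG21 and SNHG20 were higher at that p, against 0.713% of all genes. SNHG21 was at 8.43 and 8.46 in WT and 11.2, 14.4 and 14.2 in -/+, and its difference between trunc/+ and -/+ was -0.75 (SE 0.19, limma adjusted p = 0.785).

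The 49 measured interferon-response genes had a median log2FC of 0.00, with 0 of them at an unadjusted p under 0.05. SAMD9, an antiviral factor, was at 4.21 and 7.72 FPKM in WT and 6.82, 13.5 and 15.9 in -/+, and HERC5, the ligase of the ubiquitin-like ISG15, at 2.09 and 5.85 against 3.06, 0.837 and 1.28. The 48 NF-kB and TNF targets, a theme the study itself took from these samples and so no independent evidence, had a median of -0.01, with 1 member, RIPK2, higher at that p. By clone that median was -0.27, 0.31 and -0.05 in -/+ and -0.33 and 0.33 in WT, so the clones of each group went both ways. IL1A, an inflammatory cytokine, differed more within groups than between them, at 10.7 and 66.1 in WT and 17.5, 23.4 and 3.34 in -/+. The 15 class I antigen presentation genes had a median of 0.15, against -0.02 over all genes. By clone it was 0.16, 0.14 and 0.15 in -/+ and 0.07 and -0.07 in WT. In that list 3 genes lay above both WT clones, where 6.16% of all genes did. Only 1 was higher at an unadjusted p under 0.05, against 0.713% of all genes. This was HLA-F, a non-classical class I molecule, at 2.51 and 2.33 in WT and 3.47, 4.54 and 3.36 in -/+. In bulk cells HLA-F went the other way, at 3.65, 3.61 and 1.28 in the controls and 0.860, 0.988 and 1.11 after CRISPR. B2M, the light chain of class I, was at 554.3 and 553.6 in WT and 618, 612 and 639 in -/+, and in trunc/+ at 1244, 885 and 702. TE silencing genes (22) had a median of -0.05 and the 7 measured ERV-derived genes one of 0.07, with 0 members of either list at an unadjusted p under 0.05.

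Among the metabolic and stress lists, 4 of 30 genes of the integrated stress and unfolded protein response were lower at an unadjusted p under 0.05, and 7 lay below both WT clones, where 1.11% and 8.44% of all genes did. Of the 4, 3 make serine: PHGDH at 171 and 204 FPKM in WT and 139, 72.2 and 111 in -/+, PSAT1 at 118 and 120.3 against 84.6, 92.7 and 84.2, and PSPH at 16.9 and 13.3 against 10.6, 12.9 and 10.2. The fourth, CHAC1, which degrades glutathione, was at 4.25 and 4.16 in WT and 2.54, 2.13 and 1.84 in -/+. None had a limma adjusted p below 1, and the list median was -0.10. In trunc/+ CHAC1 was at 2.74, 3.73 and 4.40. PHGDH in the unedited bulk controls was at 87.5, 82.1 and 121, also below both WT clones. After bulk CRISPR PHGDH was at 127, 145 and 133, above every control. ATF4, the transcription factor of this response, was at 239 and 256 in WT and 204, 213 and 212 in -/+, below both WT clones in each. HSPA5, the chaperone BiP of the same list, overlapped, at 332 and 240.3 in WT and 352, 339.6 and 257 in -/+. The 22 sterol synthesis genes had a median of -0.20, with 5 below both WT clones and PMVK lower at an unadjusted p under 0.05 (50.9 and 47.0 in WT and 36.7, 32.7 and 42.1 in -/+). In the remaining lists the medians were 0.00 for cell cycle (39 genes), 0.10 for p53 targets (27), -0.05 for MAPK output (19), 0.00 for hypoxia and glycolysis (20), 0.05 for matrix genes (23), 0.01 for dedifferentiated or invasive melanoma genes (33) and -0.11 for cancer-testis antigens (22). The dedifferentiation median was -0.33, 0.18 and 0.17 in the 3 -/+ clones and -0.43 and 0.43 in the WT clones. Each of these lists held 0 to 3 members at an unadjusted p under 0.05 and, GAGE2C aside, 0 called.

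The 3 -/+ clones differed widely from each other. Between -/+ clones 1 and 3, 1413 genes were over 2-fold apart on the log2(FPKM + 1) scale, between clones 1 and 2, 763, and between clones 2 and 3, 787. The WT clones differed in 879 genes. The closest pair among all 8 clones was -/+ clone 1 and WT clone 1, with 289 genes over 2-fold apart. Clone 2 was also nearest to WT clone 1 (589 genes), and clone 3 to trunc/+ clone 2 (498 genes), so none of the 3 had another -/+ clone as its nearest. The median SD over genes was 0.23 in -/+, 0.16 in WT and 0.24 in trunc/+ on the log2 scale.

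**Figure D2:**
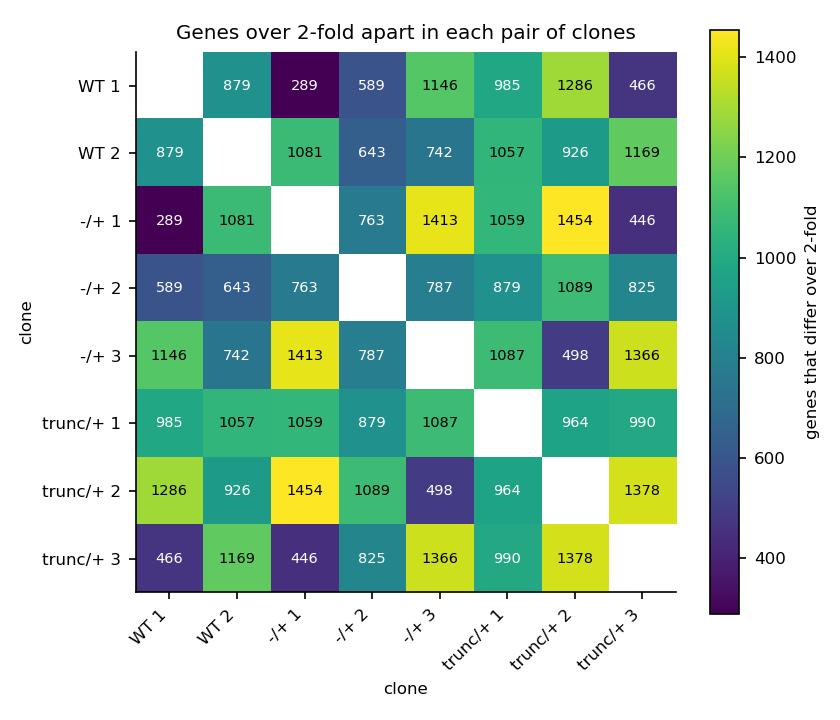
Number of genes over 2-fold apart on the log2(FPKM + 1) scale in each pair of the 8 clones, with clones on both axes. The -/+ clone 1 differs from WT clone 1 in 289 genes and from -/+ clone 3 in 1413.

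By rule, the genes with the widest range over the -/+ clones were named where the WT clones differed by under 0.5 on the log2 scale. SERPINA3, a secreted protease inhibitor, was at 140.2 and 136 FPKM in WT and 373, 149 and 1.62 in -/+. KRT81, a hair keratin, ran the other way, at 16.6 and 12.9 in WT and 2.82, 56.8 and 131 in -/+. IGFBP4, which binds insulin-like growth factors, was at 52.3 and 57.8 in WT and 32.6, 91.7 and 383 in -/+. In these 3 genes clones 1 and 3 stood at opposite ends and clone 2 between them. FGFBP1, a carrier of fibroblast growth factors, was listed at 0 in clone 1 and was at 1.11 and 12.7 in clones 2 and 3 (0.973 and 0.595 in WT). MAL2, a membrane trafficking protein, was at 0.130, 0.626 and 10.6 (0.229 and 0.130 in WT). Clone 3 was low in DEPDC7, at 5.38 against 59.2 and 71.1 in clones 1 and 2 and 107 and 115 in WT, and in TMEM98, at 0.337 against 12.1 and 10.5 and WT values of 10.4 and 13.3. COX7B2, a subunit of cytochrome c oxidase found in testis, was at 0.373 in clone 1 alone, against 21.3 and 20.4 in the others and 22.0 and 25.3 in WT. TAC1, the precursor of substance P, was at 21.6, 5.19 and 0 (1.10 and 0.612 in WT). CTAG2, a cancer-testis antigen, was at 19.9, 2.23 and 0, and listed at 0 in both WT clones.

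Among the 12 melanocyte differentiation genes tested 8 were highest in -/+ clone 1 and lowest in clone 3, with clone 2 between, and 1 ran the other way. Of the 16 neural crest genes 10 were in that order and 2 in the reverse. Over all genes 23.6% were in that order and 22.1% in the reverse. S100B, a calcium-binding marker of the lineage, was at 77.9, 27.1 and 2.43 FPKM in -/+ clones 1, 2 and 3 and at 65.7 and 6.88 in WT. ERBB3, the neuregulin receptor, was at 79.3, 52.6 and 11.7 (63.7 and 38.5 in WT). TFAP2B, a neural crest transcription factor, was at 50.02, 4.32 and 0.0168 (29.0 and 0.0124 in WT). In each of these genes -/+ clone 1 was highest and -/+ clone 3 was lowest of the -/+ clones, and WT clone 1 was higher than WT clone 2. The list of 16 neural crest genes had medians of 0.47, 0.13 and -0.69 against the WT mean in the 3 -/+ clones and the 12 melanocyte differentiation genes 0.47, 0.07 and -0.38, while their log2FC over the groups were -0.10 and 0.12. NEFL, a neurofilament of the same list, was not in that order, at 8.80, 22.6 and 14.2 (13.4 and 4.18 in WT). MITF, the master regulator of melanocytes, was at 19.7, 5.04 and 14.6 in -/+ and 5.70 and 2.48 in WT, so clones 1 and 3 were both high. Keratins of simple epithelia were lowest in clone 1 and highest in clone 3, with KRT8 at 4.93, 18.1 and 97.4 (8.90 and 59.4 in WT) and KRT18 at 169.8, 331 and 589 (180 and 496 in WT). CD74, the invariant chain of class II molecules, was at 1436, 1164 and 217 (1131 and 389 in WT). FTH1, the ferritin heavy chain, was highest in clone 3 as the keratins were, at 656, 1934 and 3264 (868 and 946 in WT), and the 19 NRF2 antioxidant genes had medians of -0.09, 0.11 and 0.48. The part of these lineage differences in the comparison of -/+ with WT was not tested.

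**Figure D3:**
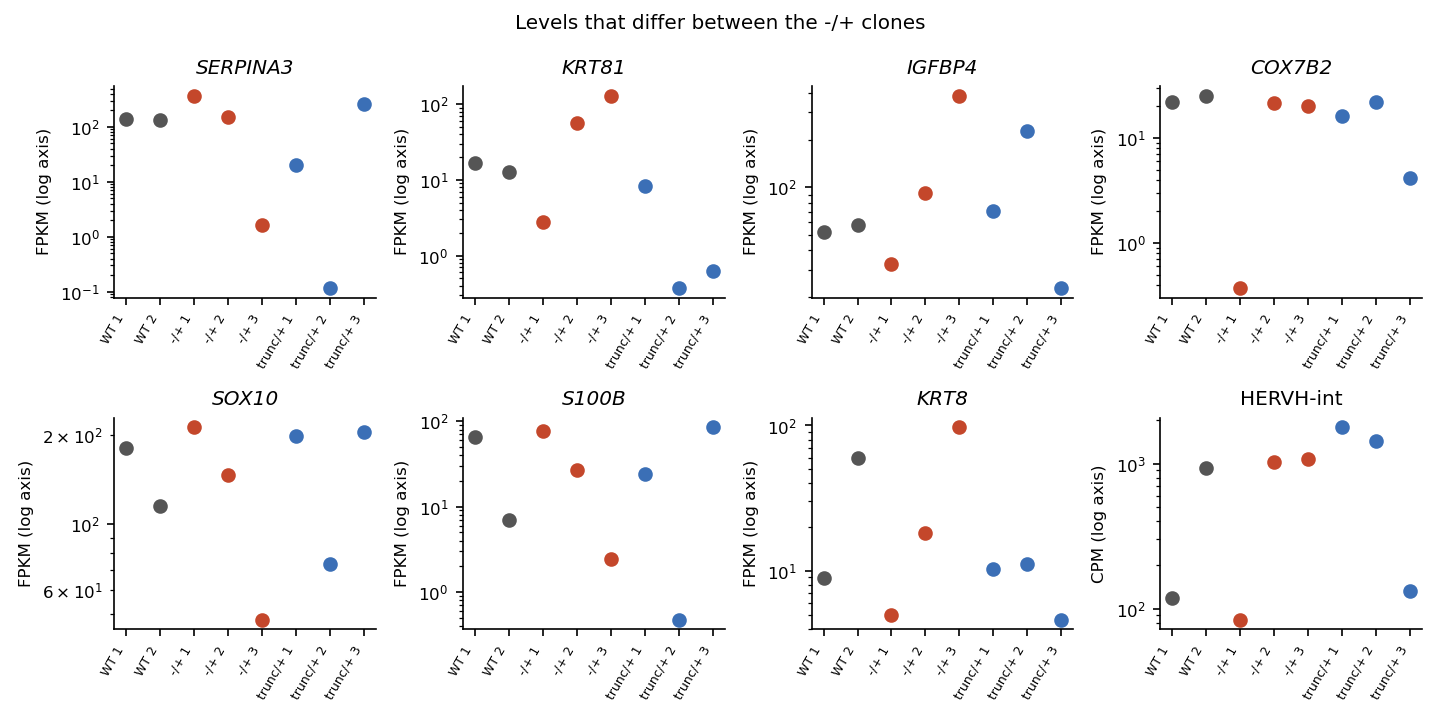
FPKM of 7 genes and CPM of the HERVH-int subfamily in each of the 8 clones (points, log axes), by group colour. Among -/+ clones SERPINA3, SOX10 and S100B are highest in clone 1 and KRT81, IGFBP4 and KRT8 in clone 3, and HERVH-int is at 84.0 in clone 1 against 1030 and 1071 in clones 2 and 3.

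Whole chromosomes also differed between clones. For each clone the median over genes of its difference from the WT mean was taken per chromosome. On chromosome 8 it was 0.29 in -/+ clone 2 and 0.01 and -0.01 in the others. On chromosome 13 (228 genes) it was 0.29 and 0.21 in clones 1 and 2 and 0.03 in clone 3, where the WT clones stood at 0.13 and -0.13. On chromosome 18 (182 genes) it was 0.34 in clone 3 and -0.01 and -0.15 in clones 1 and 2, with WT at -0.11 and 0.11. The remaining chromosomes lay between -0.10 and 0.04 in all 3 clones. In 260 consecutive blocks of 50 genes, 5 blocks exceeded 0.2 in clone 1, of which 4 were on chromosome 13, 10 in clone 2, of which 7 were on chromosome 8 and 3 on chromosome 13, and 4 in clone 3, all on chromosome 18. Below -0.2 lay 4 blocks in clone 2, on chromosomes 6, 7, 17 and 18, and 2 in clone 3, both on chromosome 1. No block passed 0.2 in either direction in the WT clones, which are set against their own mean and so each show 0.5 of the difference between them. TE loci gave the same chromosomes, at 0.37 for chromosome 8 in clone 2, 0.42 and 0.36 for chromosome 13 in clones 1 and 2, and 0.57 for chromosome 18 in clone 3. Most of these loci lie within genes and share their reads. Over loci outside genes the values were 0.23 for chromosome 8 in clone 2, 0.40 and 0.42 for chromosome 13 in clones 1 and 2 and 0.77 for chromosome 18 in clone 3, but other chromosomes stood as far out there, such as chromosome 3 (0.42 and 0.60 in clones 2 and 3) and chromosome 5 (0.41 in clone 1).

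**Figure D4:**
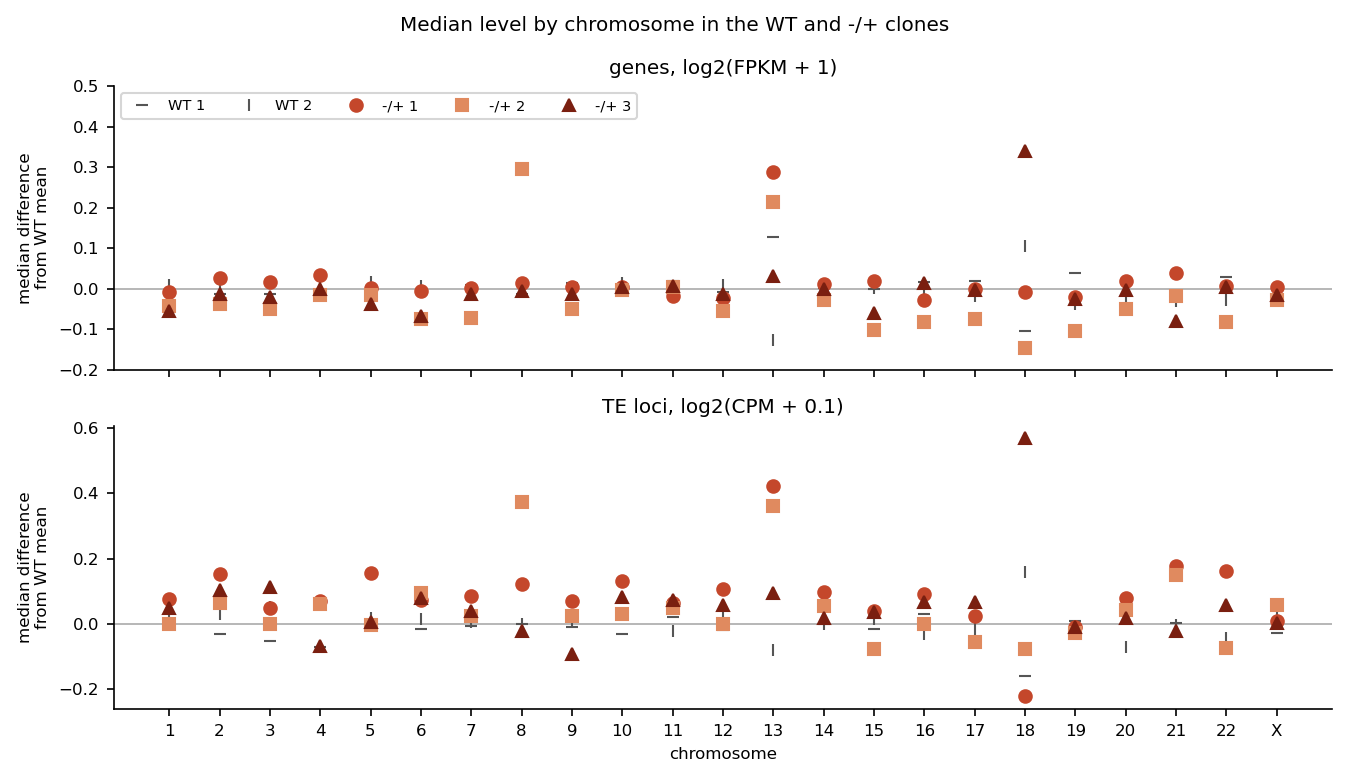
Median difference from the WT mean per chromosome in the 2 WT and 3 -/+ clones, over genes (top, log2(FPKM + 1)) and over TE loci (bottom, log2(CPM + 0.1)). Chromosome 8 stands out in -/+ clone 2, chromosome 13 in clones 1 and 2, and chromosome 18 in clone 3.

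These chromosomes held part of the genes at an unadjusted p under 0.05. Of the 92 that were higher, 13 lay on chromosome 8, and 11 were among the 228 genes tested on chromosome 13, against 0.713% of all genes. The median log2FC of these chromosomes were 0.10 and 0.18. Chromosome 1, with the most genes tested, held 8 of the higher genes. None of the 143 lower genes (1.11% of all genes) lay on chromosome 13, but chromosomes 4 and 18 held none of them either. ZC3H18 lies near the end of the long arm of chromosome 16, and the 33 genes that follow it had medians of 0.05, -0.20 and 0.01 in -/+ clones 1, 2 and 3. The 548 genes before it had -0.03, -0.08 and 0.01. Blocks elsewhere were as low in clone 2, such as -0.17 and -0.18 at the start of chromosome 16.

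LTR elements, the remains of endogenous retroviruses, summed to 4842 and 5726 CPM (counts scaled to the aligned fragments of the library) in WT and 4847, 5818 and 6185 in -/+. The groups overlapped, with means of 5617 ± 691 (SD, n = 3) and 5284 ± 625 (SD, n = 2) and a log2 difference of 0.09 (two-sided exact permutation p = 0.5). By family, ERV1 was at 2030.2 and 2917 in WT and 2032, 3072 and 3078 in -/+ (0.14, exact p = 0.5), and ERVK at 304 and 341 against 316, 402 and 442 (0.25, exact p = 0.3). ERVL differed by 0.05 (exact p = 0.4) and ERVL-MaLR by -0.01 (exact p = 0.9). LINE elements were the class that did not overlap, at 9960 and 11172 in WT and 12325, 11680 and 11234 in -/+, a difference of 0.15 (exact p = 0.2). The groups overlapped as shares of the counts of 4 classes, at 30.4% and 32.0% in WT and 34.1%, 33.3% and 30.7% in -/+ (difference 0.07), and without chromosomes 8, 13 and 18. Within them L1 was at 7541 and 8496 against 9455, 8907 and 8546. SINE and DNA elements differed by 0.04 and 0.07 (exact p = 0.6 and 0.3). Every one of these tests has 0.1 as its smallest p.

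Among ERV1 subfamilies HERVH-int had the widest range. HERVH-int, the internal part of the HERVH retrovirus, was at 119 and 928 CPM in WT and at 84.0, 1030 and 1071 in -/+. LTR7, the LTR that flanks it, was at 20.7 and 70.9 in WT and 17.97, 88.2 and 78.5 in -/+. So -/+ clone 1 and WT clone 1 were low in both and the other 3 clones high. In trunc/+ HERVH-int was at 1784, 1442 and 132. The next ERV1 subfamily by range, MER34B-int, moved by 75.7 CPM over the 5 clones, against 987 for HERVH-int.

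Locus by locus, edgeR's quasi-likelihood test called 0 of 21634 sense TE loci (0% called), and DESeq2 also called 0. Without adjustment, 396 loci passed 0.05 as higher in -/+ (1.83%) and 172 as lower (0.795%), and the -/+ clones lay above both WT clones at 2076 loci (9.6%) and below both at 1709 (7.9%). The loci had a median log2FC of 0.10 in all and 0.19 over the 3015 loci outside genes. LINE loci (7708) had a median of 0.20, with 210 higher and 54 lower at that p, and LTR loci (3220) a median of 0.07, with 51 and 36. By clone, the median LINE locus stood at 0.20, 0.16 and 0.06 against the WT mean in -/+ clones 1, 2 and 3. Of 976 subfamilies 0 were called by edgeR (0%), without adjustment 16 passed 0.05 as higher (1.64%) and 5 as lower (0.512%), and 133 lay above (13.6%) and 48 below (4.92%) both WT clones.

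Among the subfamilies named by smallest p, L1PA16 was at 94.3 and 107 CPM in WT and 142, 136 and 115 in -/+ (log2FC 0.38, SE 0.12), L1PA15-16 at 4.84 and 6.82 against 9.78, 7.84 and 8.88 (0.60, SE 0.22), and L1PB1 at 184 and 219.6 against 287, 258 and 222 (0.34, SE 0.13). Eulor5A had the smallest p on the higher side, at 0.108 and 0 CPM in WT and 0.564, 0.907 and 0.879 in -/+. All had an edgeR adjusted p = 0.995. L1M4c was at 223 and 243 in WT and 295, 324 and 246 in -/+, and trunc/+ differed from -/+ by -0.30 (SE 0.11, edgeR adjusted p = 0.994). On the lower side MER57C1 had the smallest p, at 0.144 and 0.775 in WT and 0, 0 and 0.0837 in -/+. The 5S subfamily was at 8.12 and 10.4 in WT and 5.35, 5.59 and 6.95 in -/+. MER41E was at 1.55 and 2.02 against 1.21, 0.587 and 0.67. U14, named for the snoRNA of SNORD14 genes, was at 10.7 and 9.68 in WT and 7.49, 4.96 and 4.83 in -/+. LTR41B was at 17.6 and 22.5 against 16.6, 15.9 and 13.8. The unadjusted edgeR p of U14 and LTR41B were 0.0588 and 0.0555.

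Single loci named by the same rule had few fragments. An L1PREC2 copy at chr1:108301031-108305627 (minus strand) had 0 and 1.91 estimated fragments in WT and 23.3, 23 and 33.4 in -/+, but only 12.3% of them were unique to it. An L1M4a1 copy in an intron of RAB22A (chr20:58350113-58351059, plus strand) had 0 and 1 in WT and 14, 11 and 13 in -/+, 100% of them unique. On the lower side an MLT1F1 copy at chr1:100036738-100037248 (minus strand), in an exon of the lncRNA ENSG00000288826, had 15 and 13 fragments in WT and 0 in each -/+ clone, and 0.273, 0.610 and 0.391 CPM in trunc/+. A MER57A-int copy in an intron of ZNF730 (chr19:23111761-23112441, plus strand) had 24 and 18 in WT and 1, 0 and 1 in -/+. In these loci the groups are far apart in fragments, while all had an edgeR adjusted p = 1. A count of 0 allows up to 0.0931 CPM in the deepest of the 5 libraries and 0.16 in the shallowest, for counting error only.

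The study singled out retroviral copies on these samples, so they are no independent evidence. The 9 sense MER4-int copies of chr14:105033004-105039940 summed to 15 and 23 fragments in WT and 44, 21.0 and 26 in -/+, while trunc/+ had 147, 407 and 127. In CPM this was 0.541 and 0.713, then 1.77, 1.12 and 1.09, then 4.45, 14.6 and 4.50. The 3 groups did not overlap and stood in that order. The -/+ sum was 2.08-fold that of WT (two-sided exact permutation p = 0.1, the smallest possible), and the trunc/+ sum 5.13-fold that of -/+ (exact p = 0.1). Tested singly by edgeR, 5 of these copies differed between -/+ and WT by -1.83 (SE 1.46) to 5.17 (SE 2.31) on the log2 scale. None of them was called. The HERVK3-int copy of chr16:35517050-35524053, which overlaps an exon of the lncRNA ENSG00000287448, was at 9.63 and 11.1 CPM in WT, 19.4, 16.2 and 7.12 in -/+, while trunc/+ had 27.5, 55.1 and 29.9. There -/+ clone 3 lay below both WT clones, and -/+ differed from WT by 0.46 on the log2 scale (SE 0.45, edgeR adjusted p = 1). In CPM the two-sided exact permutation p of -/+ against WT was 0.5 for this copy. The trunc/+ level was 2.73-fold that of -/+ (exact p = 0.1). By whole subfamily, MER4-int was at 28.7 and 24.4 in WT and 26.4, 21.8 and 36.8 in -/+.

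**Figure D5:**
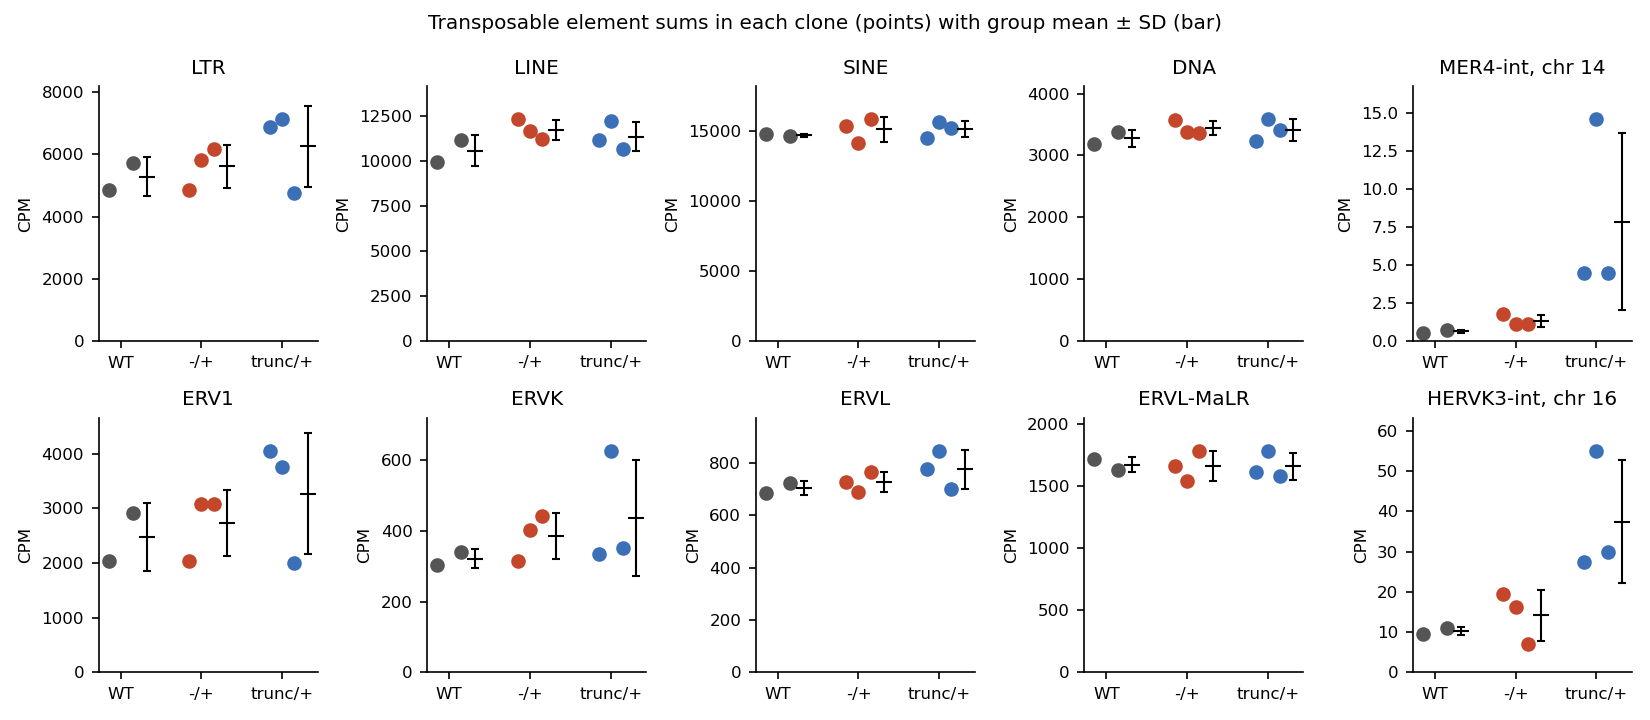
Sense TE sums in CPM in each clone (points), with bars for mean ± SD by group, for 4 classes, 4 LTR families, the MER4-int copies on chromosome 14 and the HERVK3-int copy on chromosome 16. The MER4-int sum lies at 0.541 and 0.713 in WT, 1.09 to 1.77 in -/+ and 4.45 to 14.6 in trunc/+, while the LTR sums of WT and -/+ overlap.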

How the data were processed

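PolyA-selected, stranded, paired-end RNA libraries were used. The authors quantified reads on hg38 and RepeatMasker repeats with SQuIRE, of unstated version, and the submitters' notes name cutadapt 4.6. The deposited gene files hold FPKM and TPM from StringTie over RefSeq, so the depth behind a gene is unknown. The deposited TE files hold estimated counts and unique counts per copy and strand, and the counts of aligned fragments. FPKM of entries with 1 symbol were added up, and log2(FPKM + 1) was tested in R 4.3.3 by limma 3.58.1 with a trend, which understates changes of low genes. Sense TE counts were rounded and tested with edgeR 4.0.16 (quasi-likelihood, aligned fragments as library size, minimum count 10), with DESeq2 1.42.0 as an alternative. All 8 clones shared the spread. P-values were adjusted by Benjamini-Hochberg, threshold 0.05. Genes named by rule were called, or filled to 12 a direction, plus the 10 of widest range over -/+, the 2 of largest change per list, and 6 TE features a direction. Some genes that the rules name are not reported here. The comparison, lists and rules were chosen with earlier results of these data known. Tests were run on simulated data first. Positions are from the files, annotation is from GENCODE 44, and 0 columns lacked a sample.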

Additional observations from a re-analysis of the deposited data

How the results depend on the processing

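GAGE2C was the only gene called. The number called lower was 0 with a pseudocount of 0.1, 0 in a fit of the WT and -/+ clones alone and 0 with a replicate block. It was also 0 with a minimum FPKM of 5, but that filter removed GAGE2C before testing (4.58 in WT clone 2). With no filter on low values 1 gene was called higher (ADIPOR2) and 2 lower (GAGE2C and LINC00882). Leaving out 1 clone at a time gave 0 to 1 genes called higher (RNA18SN5 without WT clone 2) and 0 lower. Replicate numbers did not pair the clones: over 7 same-numbered pairs the correlation of deviations ran from -0.55 to 0.51, with 3 over 0.1. The replicate block turned ERV3-1 to -0.0781.

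TE loci called were 33 higher and 9 lower with no filter on low counts, and 0 to 5 lower with 1 clone left out (5 without WT clone 1 and 1 without WT clone 2). As shares of the counts of 4 classes, differences turned for LTR (-0.0011), SINE (-0.049), DNA (-0.0158) and ERVL (-0.0403). The LINE difference fell to 0.0674 as a share. With 1 clone left out LINE ran from 0.0712 to 0.2369, LTR from -0.0353 to 0.2066, ERV1 from -0.1232 to 0.3998 and ERVL-MaLR from -0.0629 to 0.0428. Leaving out chromosomes 8, 13 and 18, chosen after seeing the data, gave 0.14 for LINE, with groups that then overlap, and 0.09 for LTR.

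Genes whose direction turned with 1 clone left out were ERV3-1 (-0.1526 to 0.3646), HLA-B (-0.17 to 1.383), IL1A (-2.4229 to 0.0973), PHLDA3 (-0.0034 to 0.8622), DUSP4 (-0.0791 to 1.6003), ADM (-1.8319 to 0.0018), RXRG (-1.1537 to 2.6637), CCN1 (-2.3605 to 0.4456), VCAN (-0.0499 to 1.1384), KRT14 (-0.4235 to 2.6384), LUM (-0.7287 to 0.3973), LYZ (-0.8102 to 1.6289) and CD74 (-0.6655 to 0.9606), all log2FC. Of 1078 log2FC values of named features under alternatives, 1058 kept their direction. The cause of these changes was not tested. When a WT clone is left out, the other is assumed to vary like the remaining groups. With 2 WT clones no exact test can pass 0.05, and the depth behind FPKM is unknown.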
